A study of Mus musculus with 16 samples.

Results

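Allergic lung was compared with lung that had met no allergen at all, at the level of single mature miRNAs. The comparison set the 6 OVA/OVA arrays against the 2 PBS/PBS arrays, the only arrays titled with PBS for both sensitisation and challenge, which makes 8 of the 16 arrays of the series. Every mouse miRNA on the array was taken, 611 in all, and 266 of them, each detected throughout 1 or more of the 4 groups, were tested. Mice of both groups were BALB/c of 8 to 12 weeks, and no genotype is given in the sources used here. OVA/OVA mice were sensitised intraperitoneally with 50 μg ovalbumin (OVA, an egg white protein that serves as the allergen) bound to 1 mg Alhydrogel (an aluminium adjuvant) on day 0. They were challenged intranasally with 10 μg OVA on days 12, 13, 14 and 15. PBS/PBS mice received the same 1 mg of Alhydrogel without OVA and were challenged with PBS, so that the adjuvant and the intranasal dosing were shared by both groups. Lungs were taken 24 hours after the last challenge. The study's methods describe an OVA challenge for all mice, while the labels give a PBS challenge for the PBS/PBS group, and the labels were followed here. The other groups, 4 PBS/OVA and 4 OVA/OVA DEX arrays, entered the fit for a common estimate of the spread. PBS/OVA mice received Alhydrogel without OVA and were challenged with OVA. OVA/OVA DEX mice were sensitised and challenged as OVA/OVA mice and were treated with the steroid dexamethasone (3 mg/kg, intraperitoneally) from day 11.

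A miRNA is a short RNA that is cut from a hairpin precursor and loaded into an Argonaute protein. It guides that protein to messenger RNAs by pairing through its seed, bases 2 to 8 from the 5′ end, and it usually lowers their translation and stability. Lungs in allergic airways disease are infiltrated by eosinophils, lymphocytes and other leukocytes, and the airway epithelium turns to mucus production. Some miRNAs are largely restricted to 1 cell type, such as miR-223-3p in myeloid cells, whereas others, such as miR-155-5p and miR-21-5p, are known to be induced when immune cells are activated.

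The mature sequences of the miRNAs on which the results turn are given from RefSeq (GRCm38.p6), which held 220 of the 266 tested and 19 of the 24 that were called. They are printed 5′ to 3′ with the seed in capitals. The first set holds miRNAs known from activated or myeloid immune cells together with miR-146a-5p, which shares its seed with miR-146b-5p and is shown because the values of this pair differed.
miR-155-5p: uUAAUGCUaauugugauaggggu
miR-21-5p: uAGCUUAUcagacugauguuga
miR-223-3p: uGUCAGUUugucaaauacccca
miR-146b-5p: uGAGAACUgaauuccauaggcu
miR-146a-5p: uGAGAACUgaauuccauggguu
They lie at chr16:84714143-84714165 on the plus strand (miR-155-5p), chr11:86584120-86584141 on the minus strand (miR-21-5p), chrX:96242884-96242905 on the plus strand (miR-223-3p), chr19:46342790-46342811 on the plus strand (miR-146b-5p) and chr11:43374435-43374456 on the minus strand (miR-146a-5p).

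The second set shares the seed AGUGCAA among 4 miRNAs and is shown for the contrast within 1 seed. Of the 4, 2 were called higher in OVA/OVA, beside 6.02% of all miRNAs tested. One of these, miR-721, was detected throughout OVA/OVA alone and was admitted to the test through that group, in which it was high. The count is therefore not a result about the seed.
miR-721: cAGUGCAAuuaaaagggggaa
miR-130b-3p: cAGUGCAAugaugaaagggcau
miR-301a-3p: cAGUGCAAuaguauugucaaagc
miR-130a-3p: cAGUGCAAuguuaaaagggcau

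The third set holds the other miRNAs called higher for which a sequence was at hand.
miR-680: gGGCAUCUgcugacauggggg
miR-877-5p: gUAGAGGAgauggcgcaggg
miR-139-3p: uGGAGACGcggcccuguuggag
miR-135a-1-3p: uAUAGGGAuuggagccguggcg
miR-362-5p: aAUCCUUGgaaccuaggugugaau
miR-18a-5p: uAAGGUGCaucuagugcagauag
miR-7a-5p: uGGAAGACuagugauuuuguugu

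The fourth set holds miRNAs called lower in OVA/OVA, with miR-34b-3p and miR-30c-2-3p beside the called miRNAs that share their seeds.
miR-133b-3p: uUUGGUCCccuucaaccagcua
miR-34c-3p: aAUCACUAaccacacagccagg
miR-34b-3p: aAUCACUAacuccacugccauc
miR-31-3p: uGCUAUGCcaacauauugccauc
miR-30c-1-3p: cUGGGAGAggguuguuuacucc
miR-30c-2-3p: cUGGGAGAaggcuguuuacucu
miR-153-3p: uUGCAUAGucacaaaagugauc
miR-489-3p: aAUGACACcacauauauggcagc

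MiR-135b-5p, miR-378-3p, miR-532-5p, miR-151-3p and miR-133a-3p were also called and are named only.

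The signal of a miRNA on an array is the sum over its probes of the background-subtracted spot intensity, divided by the array's 75th percentile. It was then multiplied by the geometric mean of these percentiles, a constant shared by all arrays, and is given as log2. Before scaling, the summed signal of all mouse miRNAs was 793227 and 940050 on the PBS/PBS arrays and 251350 to 733489, with a median of 389680, on the OVA/OVA arrays. All OVA/OVA arrays were thus dimmer than both PBS/PBS arrays, by an exact two-sided permutation p of 0.0714, which is the smallest that 2 arrays against 6 can give. Feature Extraction detected 270 and 283 mouse miRNAs on the PBS/PBS arrays and 240 to 301 on the OVA/OVA arrays (exact permutation p = 0.357). Both PBS/PBS arrays and OVA/OVA replicates 1 and 2 lay on 1 slide, and OVA/OVA replicates 3 to 6 lay on the other. No spot was saturated. Nothing in the labels says which samples came from separate animals, so the p-values measure the spread between these arrays.

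In OVA/OVA compared to PBS/PBS, 24 of the 266 miRNAs were called (9.02%), a call needing a limma adjusted p under 0.05 together with a 2-fold difference. Of these, 16 were higher in OVA/OVA (6.02%) and 8 were lower (3.01%). The median log2 difference over all miRNAs tested was -0.02. The split depends on the scaling between arrays. It was 7 higher and 30 lower where the percentile was taken over all miRNAs, 6 and 17 with quantile normalization, 3 and 153 without scaling, and 30 and 0 with normexp background correction, where 182 had an unadjusted limma p under 0.05. The corresponding medians over all miRNAs were -0.56, -0.19, -1.11 and 0.54. With the total gene signal of Feature Extraction, which sets undetected miRNAs to a low constant, 16 were higher and 4 lower. All 16 that were called higher were detected on 6 of 6 OVA/OVA arrays, whereas 2 of the 8 called lower were. The detection filter bears on this contrast. MiR-721 and miR-877-5p were detected throughout OVA/OVA alone, so the filter admitted them through the group in which they were high. Those called lower without full detection in OVA/OVA entered through another group. Over the 215 miRNAs detected on all 8 arrays, 14 were called higher and 2 lower. For 16 of 16 called higher, all OVA/OVA arrays exceeded both PBS/PBS arrays, and for 7 of 8 called lower all were below them. Over all miRNAs tested, 25.9% lay wholly above and 25.6% wholly below, so that this separation is common among uncalled miRNAs too. Without PBS/PBS replicate 1 or without replicate 2, 10 were called higher and 0 lower, with 60 and 63 miRNAs at an unadjusted limma p under 0.05 against 110 with both arrays.

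**Figure D1:**
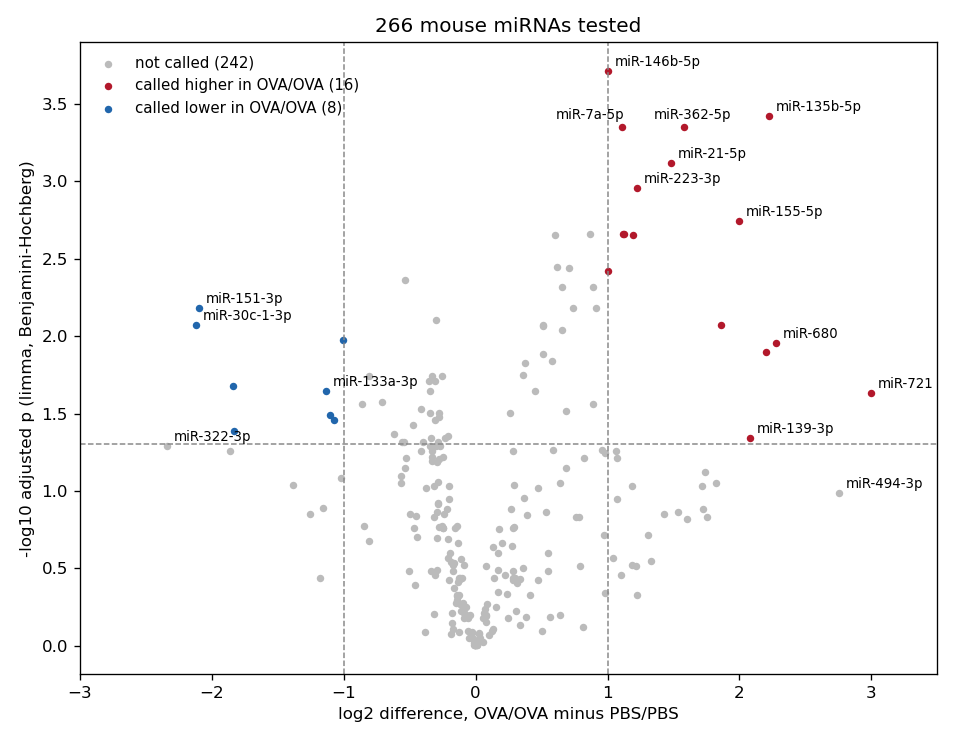
The 266 tested miRNAs by log2 difference, OVA/OVA minus PBS/PBS (x axis), and -log10 of the limma adjusted p (y axis), with dashed lines at a 2-fold change and at an adjusted p of 0.05. The 16 called higher (red) reach a log2 difference of 2.99, and the 8 called lower (blue) reach -2.12.

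**Figure D2:**
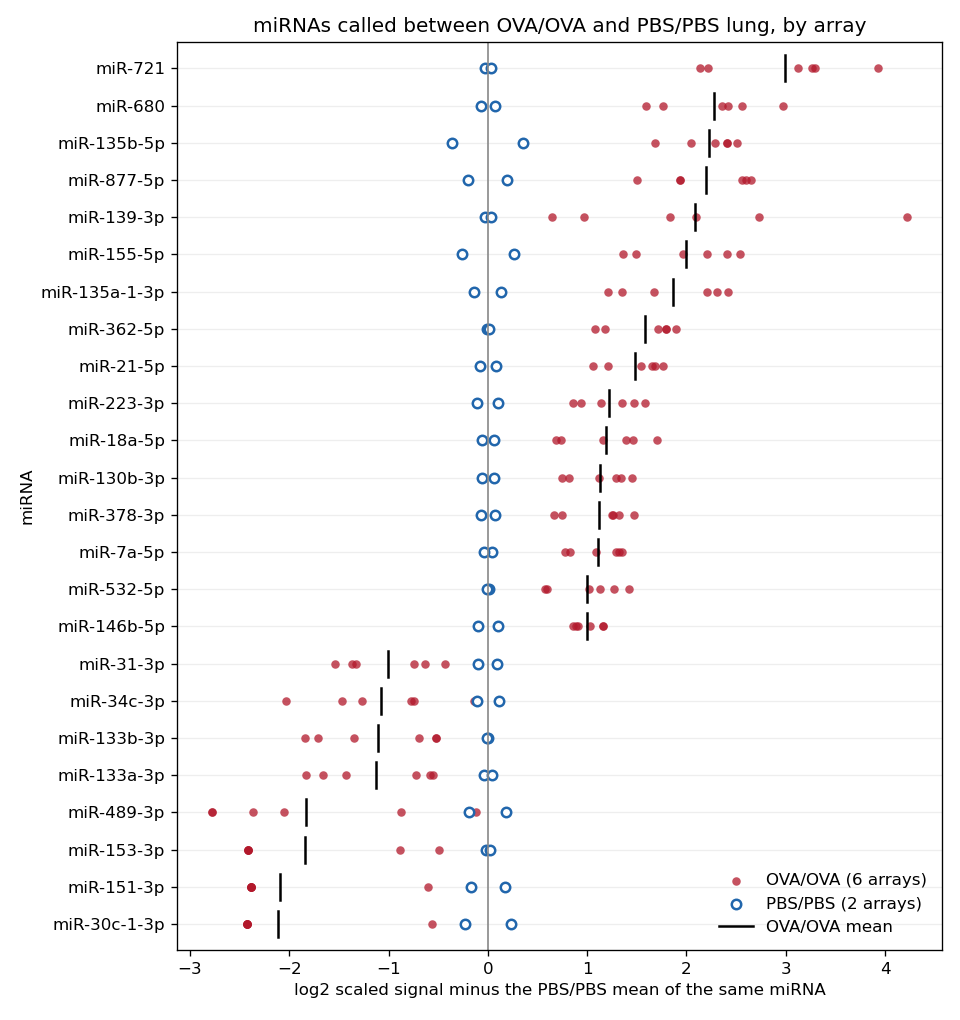
Log2 scaled signal of each called miRNA on each array, relative to the PBS/PBS mean of that miRNA (x axis), with a row per miRNA. Red points are the 6 OVA/OVA arrays, open blue points the 2 PBS/PBS arrays and black bars the OVA/OVA means. The groups overlap only for miR-489-3p, and OVA/OVA replicates 4 and 5 supply the smallest values of all 16 rows called higher.

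The miRNAs of immune activation held 3 of the 16 that rose, out of 6 members tested of 10 listed, 9 of them on the array. Of all miRNAs tested, 6.02% were called higher. MiR-155-5p, which regulates T and B cell responses, had a log2 signal of 6.44 and 6.96 on the PBS/PBS arrays and of 8.06 to 9.24, with a median of 8.79, on the OVA/OVA arrays. All 6 OVA/OVA arrays lay more than 2-fold above the brighter control array. This amounted to a log2 difference of 1.99 (SE 0.340, adjusted p = 0.00180), or 3.98-fold. MiR-21-5p, which is abundant in inflamed tissue, lay at 14.65 and 14.82 in PBS/PBS and between 15.80 and 16.50, with a median of 16.33, in OVA/OVA. Its groups were clear of each other, with a difference of 1.48 (SE 0.225, adjusted p = 0.000758) or 2.80-fold. MiR-146b-5p, a miRNA that dampens signalling through TRAF6 and IRAK1, lay at 9.75 and 9.94 in PBS/PBS and between 10.71 and 11.01 in OVA/OVA. The difference of 1.00 (SE 0.116, adjusted p = 0.000194) was just over the 2-fold line, and it fell under that line, at 0.90 to 0.99, without OVA/OVA replicate 1, 2 or 3 or PBS/PBS replicate 1. Its adjusted p then stayed at 0.0121 or below.

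MiR-146a-5p differs from miR-146b-5p at 2 of 22 bases, both outside the seed, and moved differently. Its log2 signal was 10.75 and 10.83 in PBS/PBS and 10.26 to 10.74, with a median of 10.61, in OVA/OVA. All OVA/OVA arrays lay just under the lower control array, but the difference of -0.21 (SE 0.141, adjusted p = 0.272) did not pass the test. MiR-132-3p and miR-212-3p, from 1 precursor cluster on chromosome 11, had differences of 0.54 (adjusted p = 0.138) and 0.33 (adjusted p = 0.372). Relative to the median of all miRNAs, the median of the 6 members lay 0.39 to 0.84 higher under every scaling tried. Either percentile and no scaling shift all differences alike, apart from values at the floor. For this and the later lists, those settings therefore could not change the distance, which was 0.79 here under all of them. Only quantile normalization (0.68), normexp (0.39) and the total gene signal (0.84) could change it. Singly, 5 of the 6 were positive, against 4 with the percentile over all miRNAs, 3 with quantile normalization and 2 without scaling, where miR-146b-5p was at -0.10.

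Leukocyte miRNAs held 1 member that rose and 2 that were higher by less than 2-fold, of 5 tested. Among all miRNAs, 6.02% were called higher, and 13.2% were higher by adjusted p with the calls included. MiR-223-3p, a miRNA of neutrophils, eosinophils and macrophages, had a log2 signal of 11.51 and 11.30 in PBS/PBS and of 12.26 to 12.98, with a median of 12.65, in OVA/OVA. The gap between the groups was wider than the spread within either, and the difference was 1.22 (SE 0.196, adjusted p = 0.00110), or 2.34-fold. MiR-142-3p, found in all blood lineages, lay at 14.14 and 13.97 in PBS/PBS and at 14.60 to 15.18 in OVA/OVA, a difference of 0.92 (SE 0.200, adjusted p = 0.00653). The lymphocyte miRNA miR-342-3p was higher by 0.45 (SE 0.129, adjusted p = 0.0226). MiR-142-5p, at 0.47 (adjusted p = 0.0955), and miR-150-5p of mature B and T cells, at 0.30 (adjusted p = 0.364), did not pass the test.

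The summed log2 signal of the 5 leukocyte miRNAs was 14.35 and 14.52 in PBS/PBS and 15.00 to 15.56 in OVA/OVA, with no overlap. Singly, 25.9% of all miRNAs tested lay wholly above PBS/PBS. The leukocyte sum moved with the same groups as every miRNA called here, and its part in the other differences was not tested. In whole lung, a change in the number of cells of a type and a change in RNA per cell cannot be told apart. The median of the list lay 0.49 to 0.73 above that of all miRNAs under the scalings tried, except with normexp background correction, where it was 0.06 below. All 5 differences were positive, against 2 with the percentile over all miRNAs and 1 without scaling.

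Red cell miRNAs went the other way without passing the test. MiR-451, the Dicer-independent miRNA of erythrocytes, lay at 16.19 and 16.06 in PBS/PBS and between 15.07 and 16.03 in OVA/OVA, a difference of -0.50 (adjusted p = 0.142). MiR-144-3p from the same precursor cluster differed by -0.45 (adjusted p = 0.197) and miR-3107-5p, which shares the erythroid miR-486 locus, by -0.57 (adjusted p = 0.0798). Each of the 3 had all OVA/OVA arrays under both PBS/PBS arrays, as 25.6% of all miRNAs did, and their median was 0.42 to 1.04 under that of all miRNAs in every scaling.

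MiR-135b-5p rose, and it was the only miRNA called between the PBS/OVA and PBS/PBS control groups. Its log2 signal was 4.48 and 5.20 in PBS/PBS and 6.52 to 7.35, with a median of 7.19, in OVA/OVA. The difference was 2.23 (SE 0.291, adjusted p = 0.000377), or 4.68-fold, and it was called without each of the 8 arrays in turn, at 1.87 to 2.58. In PBS/OVA mice, which were challenged with 10 μg OVA without prior sensitisation, its signal was 6.36, 6.51, 6.39 and 7.35. Those 4 arrays lay above both PBS/PBS arrays and within or just under the OVA/OVA range. The test of PBS/OVA against PBS/PBS, which is the difference between the comparisons of OVA/OVA with the 2 controls, gave 1.81 (adjusted p = 0.0124), and 1 of 266 miRNAs was called there (0.376%). That test made no call without PBS/PBS replicate 1, nor without scaling, with quantile normalization, normexp, the value table, no detection filter, the replicate block, the brightness covariate or only the slide that holds PBS/PBS.

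Against PBS/OVA, 14 of 266 miRNAs were called in OVA/OVA (5.26%), among them 8 of the 16 that rose and 4 of the 8 that fell against PBS/PBS. Both comparisons use the same OVA/OVA arrays, and their values are given side by side. MiR-155-5p differed by 1.87 from PBS/OVA and by 1.99 from PBS/PBS. MiR-223-3p differed by 1.12 and 1.22 and miR-130b-3p by 1.11 and 1.13. MiR-21-5p lay lower against PBS/OVA, at 0.92 beside 1.48, and miR-146b-5p at 0.44 beside 1.00. Their PBS/OVA means were each 0.56 above PBS/PBS and did not pass the test (adjusted p = 0.946 and 0.0637). Over the 16 called higher, PBS/OVA lay between -0.10 and 1.81 from PBS/PBS, with a median of 0.37.

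**Figure D3:**
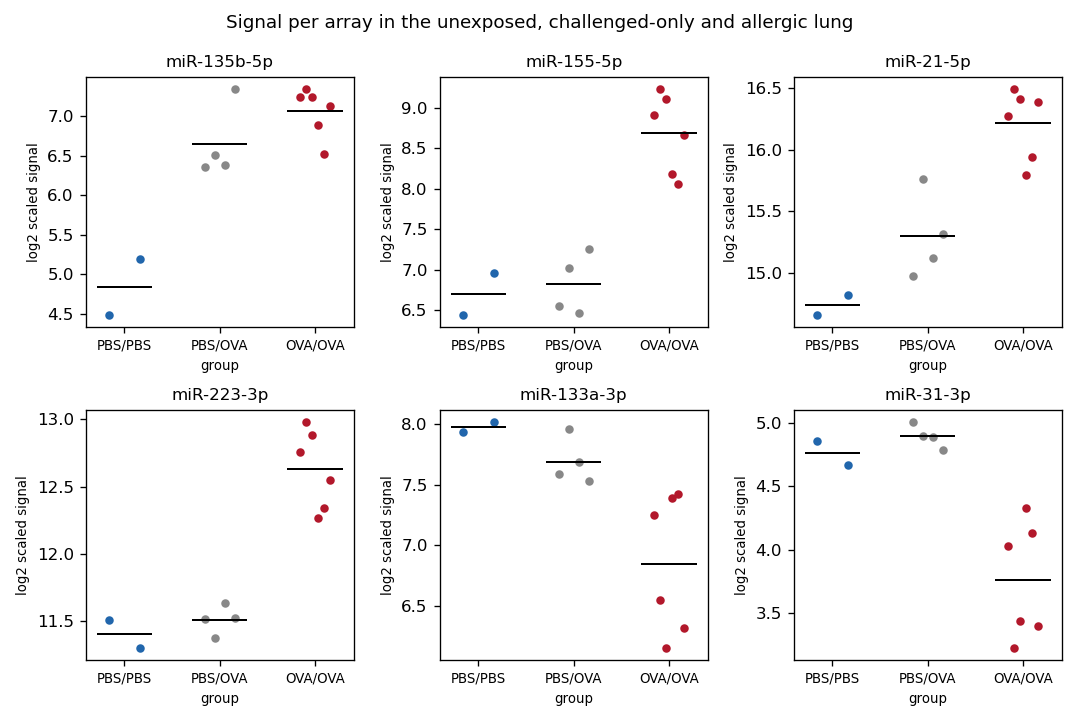
Log2 scaled signal on each array (y axis) in PBS/PBS (blue), PBS/OVA (grey) and OVA/OVA (red) for 6 called miRNAs, with bars at group means. For miR-135b-5p the PBS/OVA arrays (6.36 to 7.35) sit near OVA/OVA, whereas for miR-223-3p (11.38 to 11.63) they sit near PBS/PBS.

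MiRNAs of the miR-17 clusters, which are tied to proliferating cells, held 1 member that rose and 4 that were higher by less than 2-fold. They came from 12 tested of 18 listed. The 1 call among 12 is near the 6.02% of all miRNAs called higher, and 13.2% of all were higher by adjusted p. MiR-18a-5p lay at 6.18 and 6.30 in PBS/PBS and between 6.93 and 7.94, with a median of 7.51, in OVA/OVA. All OVA/OVA arrays were above the controls, and the difference was 1.19 (SE 0.219, adjusted p = 0.00222), or 2.28-fold. Its hairpin lies in a run of 6 precursors at chr14:115043684-115044496 on the plus strand (GRCm38.p6), from which 8 mature miRNAs were tested. MiR-17-3p and miR-19a-3p of that run were each higher by 0.66 (adjusted p = 0.00914 and 0.00480) and miR-20a-5p by 0.51 (adjusted p = 0.00858). MiR-20b-5p, from the copy on the X chromosome, was likewise higher by 0.51 (adjusted p = 0.00850).

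The clusters did not move as 1 block. MiR-92a-3p differed by 0.29 (adjusted p = 0.0909), miR-19b-3p by 0.17 (adjusted p = 0.253) and miR-20a-3p by -0.05 (adjusted p = 0.895). The third paralogous cluster, on chromosome 5, gave 0.01 for miR-106b-5p, 0.27 for miR-93-5p and 0.08 for miR-25-3p, and none passed the test. The median of the 12 lay 0.30 to 0.45 above that of all miRNAs under the scalings tried, except with normexp background correction, where it was 0.05 below. Of the 12 differences 11 were positive, against 3 with the percentile over all miRNAs and 1 without scaling. The seed AAAGUGC is shared by miR-17-5p, miR-20a-5p, miR-20b-5p, miR-93-5p and miR-106b-5p. Of these 5, 2 passed an adjusted p of 0.05, where 25.2% of all miRNAs did. All 5 differences were positive (0.01 to 0.51), but all 5 were negative with the percentile over all miRNAs and without scaling, and miR-17-5p and miR-106b-5p were negative with quantile normalization.

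A cluster of miRNAs on the X chromosome held 2 that rose and 2 that were higher by less than 2-fold, out of 6 tested of 10 listed. The shares over all miRNAs were 6.02% called higher and 13.2% higher by adjusted p. MiR-362-5p lay at 5.72 and 5.73 in PBS/PBS and between 6.80 and 7.62, with a median of 7.48, in OVA/OVA. The control arrays nearly coincided and lay apart from all 6 OVA/OVA arrays, with a difference of 1.58 (SE 0.219, adjusted p = 0.000446), or 2.99-fold. MiR-532-5p lay at 5.81 and 5.78 in PBS/PBS and at 6.38 to 7.21 in OVA/OVA, a difference of 1.00 (SE 0.200, adjusted p = 0.00381). It fell short of 2-fold, at 0.92 to 1.00, or of the adjusted p without OVA/OVA replicate 1, 2, 3 or 6 or PBS/PBS replicate 2.

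MiR-500-3p was higher by 0.71 (adjusted p = 0.00364) and miR-362-3p, the other arm of the miR-362 hairpin, by 0.51 (adjusted p = 0.0131). MiR-188-5p had a difference of 1.74 with an adjusted p of 0.0753, and miR-532-3p of 0.28 with 0.378. The precursors that could be placed lie at chrX:7237695-7248440 on the minus strand. Each of the 6 had a positive difference, and the median of the list stood 0.41 to 0.92 above that of all miRNAs in every scaling. Singly, however, 4 of the 6 were negative without scaling (miR-532-5p at -0.0949), 2 with the percentile over all miRNAs and 1 with quantile normalization.

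Within the seed AGUGCAA, the responses differed widely. MiR-721 had a log2 signal of 3.66 and 3.72 on the PBS/PBS arrays, where it was detected on neither, and of 5.83 to 7.62, with a median of 6.88, on the OVA/OVA arrays. Its estimate was 7.97-fold higher in OVA/OVA (log2 difference 2.99, 95% confidence interval 1.14 to 4.85, SE 0.861, adjusted p = 0.0233). This is a bound only in that the PBS/PBS signal was undetected, and it does not allow for the spread or the processing. The log2 difference was 3.46 with the total gene signal and 1.27 with normexp background correction. MiR-130b-3p lay at 5.96 and 6.09 in PBS/PBS and between 6.77 and 7.48 in OVA/OVA, a difference of 1.13 (SE 0.203, adjusted p = 0.00218). MiR-130a-3p differs from miR-130b-3p at 2 of 22 bases and gave -0.13 (adjusted p = 0.364), and miR-301a-3p gave 0.17 (adjusted p = 0.177). MiR-721 and miR-130b-3p are identical at 15 of 21 bases counted from the 5′ end, 7 of them beyond base 8.

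The rise of miR-721 was accompanied by those of miR-680, miR-877-5p, miR-139-3p and miR-135a-1-3p, whose signals lay near the detection limit in PBS/PBS. MiR-680 was detected on 1 of 2 PBS/PBS arrays, at 4.47 and 4.33, and lay between 6.00 and 7.38, with a median of 6.79, in OVA/OVA. The difference was 2.28 (SE 0.559, adjusted p = 0.0110), in part against a signal not above background, and it was 3.52 with the total gene signal and 1.21 with normexp background correction. Its sequence occurs at 3 places, on chromosomes 6, 12 and X, so its source cannot be named. MiR-877-5p, cut from an intron without Drosha, was detected on 1 of 2 PBS/PBS arrays, at 3.85 and 4.25, and lay between 5.55 and 6.70 in OVA/OVA, a difference of 2.20 (SE 0.551, adjusted p = 0.0127) that was 2.68 and 1.18 under the same alternatives.

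MiR-139-3p lay at 3.84 and 3.89 in PBS/PBS and between 4.51 and 8.09 in OVA/OVA. It had the widest spread of the 16, with a difference of 2.08 (SE 0.705, adjusted p = 0.0453) that was not called without OVA/OVA replicate 1, 2 or 6 (adjusted p 0.0530 to 0.0768) or without either PBS/PBS array (0.207 and 0.219). MiR-139-3p was called in 11 of 32 alternatives. The call was also lost without any single OVA/OVA DEX array and without PBS/OVA replicate 1, 3 or 4, which bear on the spread only. Its partner arm miR-139-5p, from the same hairpin on chromosome 7, was higher by 0.60 (SE 0.110, adjusted p = 0.00222). MiR-135a-1-3p lay at 4.72 and 4.45 in PBS/PBS and between 5.80 and 7.01 in OVA/OVA, a difference of 1.86 (SE 0.432, adjusted p = 0.00850). The calls of miR-721, miR-680, miR-877-5p and miR-135a-1-3p were lost without either PBS/PBS array, with adjusted p between 0.0673 and 0.156 and differences of 1.73 to 3.02.

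The remaining miRNAs that rose were miR-378-3p and miR-7a-5p. MiR-378-3p, which is encoded in an intron of the metabolic coactivator gene Ppargc1b, lay at 7.45 and 7.59 in PBS/PBS and between 8.19 and 8.99 in OVA/OVA. All OVA/OVA arrays were above the controls, with a difference of 1.12 (SE 0.201, adjusted p = 0.00218), and its partner arm miR-378-5p was higher by 0.58 (adjusted p = 0.0145). MiR-7a-5p, known from epithelial and neuroendocrine cells, lay at 6.54 and 6.45 in PBS/PBS and between 7.28 and 7.85 in OVA/OVA, a difference of 1.11 (SE 0.157, adjusted p = 0.000446). Its sequence is encoded on chromosomes 7 and 13, and the other arm of the hairpin on chromosome 13, miR-7a-1-3p, gave -0.18 (adjusted p = 0.614).

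Striated muscle miRNAs held 2 of the 8 that fell, out of 4 tested of 7 listed, where 3.01% of all miRNAs were called lower. MiR-133a-3p lay at 7.93 and 8.02 in PBS/PBS and between 6.15 and 7.42, with a median of 6.90, in OVA/OVA. The OVA/OVA arrays spread widely under the narrow control pair, with a difference of -1.13 (SE 0.322, adjusted p = 0.0226), or 2.19-fold lower. MiR-133b-3p lay at 8.83 and 8.82 in PBS/PBS and between 6.97 and 8.30 in OVA/OVA, a difference of -1.11 (SE 0.344, adjusted p = 0.0324). MiR-1a-3p, the partner of miR-133 in heart and skeletal muscle, differed by -1.02 (adjusted p = 0.0824) and miR-208b-3p, from a myosin gene, by -0.53 (adjusted p = 0.0611).

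The summed log2 signal of the 4 muscle miRNAs was 11.28 and 11.37 in PBS/PBS and 9.37 to 11.10 in OVA/OVA. Each of the 4 was lowest on OVA/OVA replicate 3, then 2 and 6 in either order. Replicates 3 and 6 were the dimmest arrays (summed signal 286004 and 251350), whereas replicate 2 (407898) was brighter than replicate 5 (371463). Heart or other striated muscle left on the dissected lung was not recorded in the sources used here, and its part in this result was not tested. The median of the list lay 0.94 to 1.05 under that of all miRNAs in every scaling, although 1 of the 4 was positive with normexp background correction. With array brightness as a covariate it lay 0.41 under, and neither miR-133 was called. The call of miR-133a-3p was lost without OVA/OVA replicate 3 (-0.99) or either PBS/PBS array (adjusted p 0.132 and 0.153). With the slide blocked, miR-133a-3p was at -1.02 (adjusted p = 0.0514) and miR-133b-3p at -0.97 (adjusted p = 0.0689). That of miR-133b-3p was lost without OVA/OVA replicate 2, 3 or 6 or either PBS/PBS array, at -1.11 to -0.96. The smooth muscle miRNAs miR-143-3p and miR-145-5p differed by -0.12 (adjusted p = 0.372) and -0.20 (adjusted p = 0.378).

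MiRNAs of ciliated epithelium held 1 that fell and 2 that were lower by less than 2-fold, of 6 tested. The shares over all miRNAs were 3.01% called lower and 12% lower by adjusted p. MiR-34c-3p lay at 5.63 and 5.85 in PBS/PBS and between 3.71 and 5.60, with a median of 4.71, in OVA/OVA. The highest OVA/OVA array nearly met the lower control, and the difference was -1.07 (SE 0.341, adjusted p = 0.0350). It was not called without OVA/OVA replicate 2, 3 or 6 or either PBS/PBS array, at -1.18 to -0.88, and it was 0.46 with normexp background correction. MiR-34b-5p lay at 11.17 and 11.22 in PBS/PBS and between 10.68 and 10.94 in OVA/OVA, a difference of -0.35 (SE 0.0966, adjusted p = 0.0195). MiR-34c-5p, at 10.48 and 10.45 against 9.96 to 10.24, differed by -0.34 (SE 0.0974, adjusted p = 0.0226).

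The miR-34b/c hairpins lie side by side at chr9:51103044-51103632 on the minus strand. MiR-34b-3p, which shares the seed AUCACUA with miR-34c-3p, differed by -0.46 (adjusted p = 0.402). MiR-449a-5p and miR-449c-5p of multiciliated cells, which share the seed GGCAGUG with miR-34b-5p, had positive differences of 0.96 (adjusted p = 0.0545) and 1.18 (adjusted p = 0.302). The ciliated list thus held differences of both signs, and its median lay 0.03 to 0.33 under that of all miRNAs.

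Of the 7 epithelial miRNAs tested, 2 passed an adjusted p of 0.05, where 25.2% of all miRNAs did. Of these, miR-200c-3p was higher by 0.36 (SE 0.0962, adjusted p = 0.0179), whereas miR-203-3p, a miRNA of stratified epithelium, was lower (log2 difference -0.53, SE 0.109, adjusted p = 0.00437). MiR-200c-3p turned to -0.17 with the percentile over all miRNAs and to -0.74 without scaling, and miR-203-3p to 0.13 with normexp background correction. MiR-200a-3p, miR-200b-3p, miR-429-3p, miR-141-3p and miR-375-3p ranged from -0.35 to 0.29 and did not pass the test. Endothelial miR-126-3p and miR-126-5p differed by -0.22 (adjusted p = 0.132) and -0.54 (adjusted p = 0.0711). The 4 mesenchymal miRNAs miR-199a-3p, miR-199a-5p, miR-199b-5p and miR-214-3p ranged from -0.30 to -0.06 and did not pass the test. The tested marker miRNAs of epithelium, endothelium, smooth muscle and mesenchyme were detected on all 8 arrays.

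**Figure D4:**
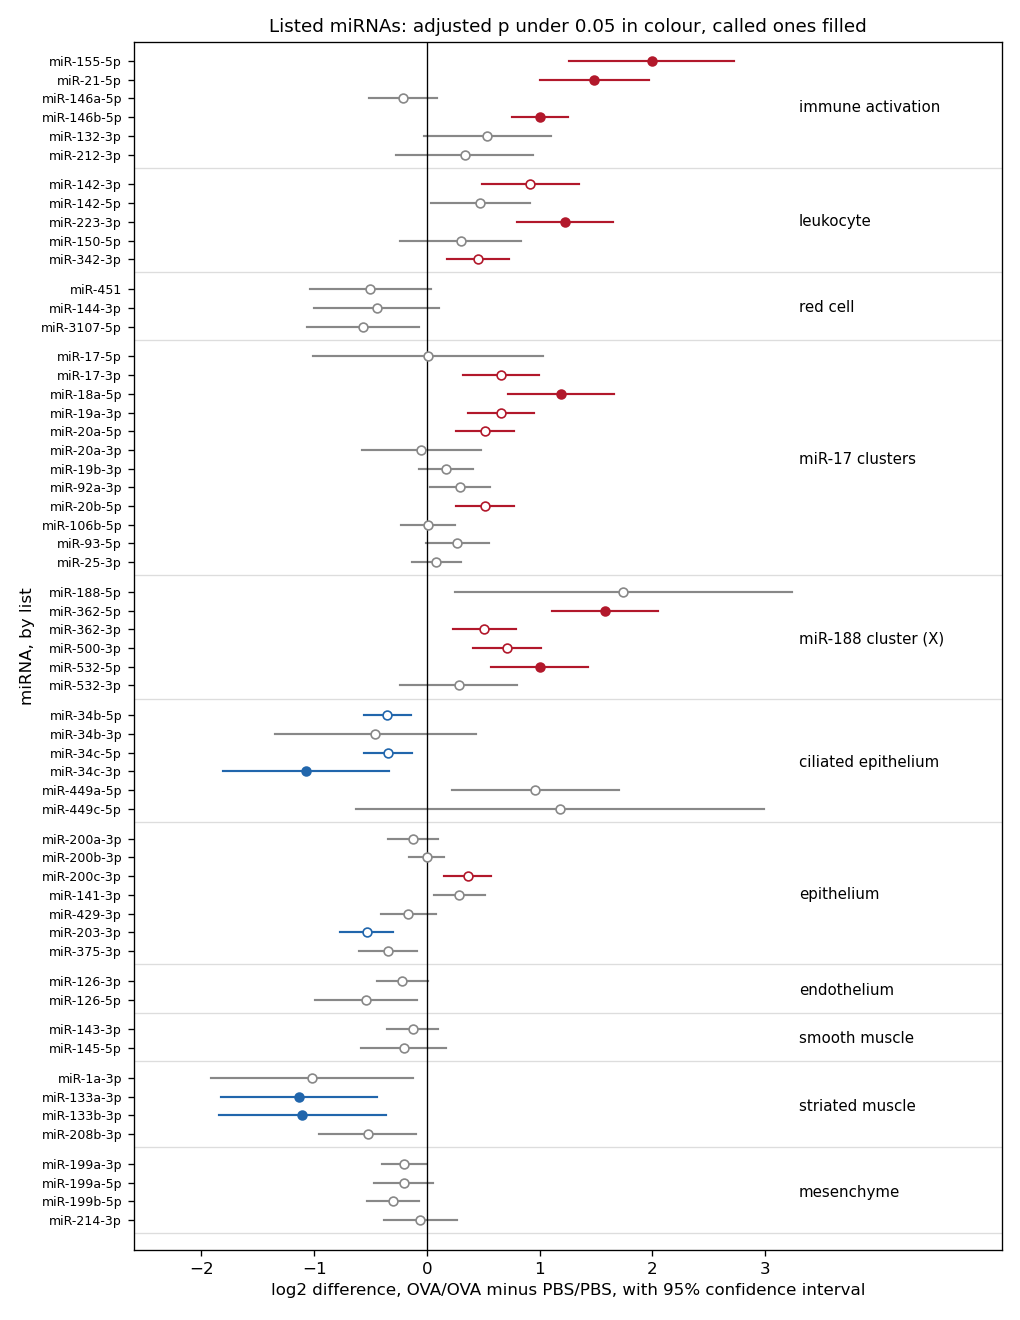
Log2 difference, OVA/OVA minus PBS/PBS, with its 95% confidence interval (x axis) for each tested miRNA of 11 lists (rows). Colour marks an adjusted p under 0.05 and filled points the called miRNAs, and the 10 filled points are miR-155-5p, miR-21-5p, miR-146b-5p, miR-223-3p, miR-18a-5p, miR-362-5p and miR-532-5p among the higher and miR-34c-3p, miR-133a-3p and miR-133b-3p among the lower.

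MiR-31-3p fell with its partner arm. It lay at 4.86 and 4.67 in PBS/PBS and between 3.22 and 4.33, with a median of 3.73, in OVA/OVA, where it was detected on 2 of 6 arrays. The difference was -1.01 (SE 0.245, adjusted p = 0.0106), and miR-31-5p, from the other arm of the hairpin on chromosome 4, was lower with a difference of -0.35 (SE 0.106, adjusted p = 0.0313). Without OVA/OVA replicate 2, 3 or 6 or either PBS/PBS array the call of miR-31-3p was lost, at -1.10 to -0.90. Both arms had positive differences with normexp background correction, 0.67 and 0.29.

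The other 4 that fell rest on arrays at the floor, the log2 value of 1.38 to which low signals were set. MiR-30c-1-3p lay at 4.04 and 3.58 in PBS/PBS and was at the floor on 5 of 6 OVA/OVA arrays, with 3.25 on replicate 4, a difference of -2.12 (SE 0.488, adjusted p = 0.00845). MiR-151-3p lay at 3.94 and 3.60 in PBS/PBS and was likewise at the floor on 5 OVA/OVA arrays, with 3.16 on replicate 4, a difference of -2.09 (SE 0.462, adjusted p = 0.00653). MiR-153-3p, known from neurons, at 3.78 and 3.82 in PBS/PBS, was at the floor on 4 OVA/OVA arrays and differed by -1.84 (SE 0.514, adjusted p = 0.0210). MiR-489-3p, at 3.98 and 4.35 in PBS/PBS, ranged from 1.38 to 4.04 in OVA/OVA and differed by -1.83 (SE 0.600, adjusted p = 0.0410).

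The sizes of these 4 differences therefore depend on the floor. With the total gene signal they were -0.12, -0.56, -1.22 and -0.82, and with normexp background correction they were 0.86, 0.86, 0.77 and 0.83. None of the 4 was called without either PBS/PBS array (adjusted p 0.0564 to 0.235). MiR-489-3p was also lost without OVA/OVA replicate 2, 3, 5 or 6 (adjusted p 0.0515 to 0.0676). MiR-30c-5p, the other arm of the miR-30c hairpins, was well measured at 12.34 and 12.13 in PBS/PBS and 11.21 to 12.00 in OVA/OVA, and was lower with a difference of -0.56 (SE 0.193, adjusted p = 0.0482). MiR-30c-2-3p, which differs from miR-30c-1-3p at 3 of 22 bases outside the seed, gave -0.13 (adjusted p = 0.477).

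The calls included, 67 miRNAs had an adjusted p under 0.05 irrespective of size (25.2%), with 35 higher (13.2%) and 32 lower (12%). The 19 higher by less than 2-fold ranged from 0.26 to 0.92 and included miR-296-5p and miR-191-3p, at 0.89 each, and both arms of the miR-340 hairpin, at 0.87 and 0.61. MiR-340-5p lay at 6.35 and 6.38 in PBS/PBS and between 6.92 and 7.61 in OVA/OVA (adjusted p = 0.00218). The 24 lower by less than 2-fold ranged from -0.86 to -0.21, and 41 of these 43 were detected on all OVA/OVA arrays. Among them were miR-193b-3p at -0.81 (adjusted p = 0.0182) and its neighbour on chromosome 16 miR-365-3p at -0.28 (adjusted p = 0.0313), which are known from adipose and muscle cells. MiR-497-5p and miR-195-5p, a cluster on chromosome 11 that shares the seed AGCAGCA with miR-15 and miR-16, were lower at -0.21 and -0.40 (adjusted p = 0.0442 and 0.0482). The other 4 tested members of that seed did not pass.

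Where both arms of a hairpin were tested and had a RefSeq sequence, the arms mostly had the same sign. Of 45 such pairs, 33 did, and in the 6 pairs in which both arms had an adjusted p under 0.05 both went the same way. These were miR-139, miR-340, miR-342, miR-362, miR-30c-1 and miR-31. Of the 19 pairs with at least 1 such arm, 16 had the same sign, with miR-7a, miR-20a and miR-335 as the exceptions. MiR-24-3p and miR-30c-5p are each encoded by more than 1 hairpin and entered more than 1 pair. Pairs with an arm that has no RefSeq sequence were not counted. Among them, both arms of miR-378 were higher and both arms of miR-34c lower, each at an adjusted p under 0.05. Of all 266 miRNAs, 125 differences were positive and 141 negative.

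Large differences also stood outside the calls. MiR-494-3p lay at 6.15 and 5.75 in PBS/PBS and between 5.88 and 11.28, with a median of 8.72, in OVA/OVA, so the groups overlapped and the difference of 2.76 (SE 1.22, adjusted p = 0.103) did not pass. MiR-322-3p, at 4.48 and 4.55 in PBS/PBS and 1.38 to 4.33 in OVA/OVA, differed by -2.33 (adjusted p = 0.0512), and miR-10a-3p by -1.86 (adjusted p = 0.0549). MiR-1897-5p, miR-1187 and miR-188-5p had positive differences of 1.82, 1.75 and 1.74, with adjusted p of 0.0888, 0.148 and 0.0753. None of the 3 had overlapping groups, but 25.9% of all miRNAs tested lay wholly above PBS/PBS. The spread of miR-1897-5p and miR-188-5p was wider in PBS/OVA (SD 1.63 and 1.58, n = 4), which enters the fit, than in OVA/OVA (SD 0.795 and 0.618, n = 6), and PBS/OVA replicate 2 was at 8.51 and 8.20. With the slide blocked, miR-494-3p (3.91, adjusted p = 0.0259), miR-1897-5p (2.34, adjusted p = 0.0420) and miR-188-5p (2.21, adjusted p = 0.0397) passed. Without PBS/OVA replicate 2, 21 miRNAs in all were called higher. MiR-376c-3p was detected on both PBS/PBS arrays, at 4.67 and 3.16, and on 0 of 6 OVA/OVA arrays, whose undetected signals of 1.38 to 4.75 overlapped them (difference -1.18, adjusted p = 0.364). MiR-126-3p, miR-451, let-7f-5p, let-7a-5p and miR-21-5p gave the strongest signal on PBS/PBS arrays, which also reflects their probes, and among them only miR-21-5p passed the test.

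The dimmer OVA/OVA arrays and the slide were taken into account in separate fits. With array brightness as a covariate, 5 miRNAs were called higher and 0 lower, with 59 at an unadjusted limma p under 0.05. The 5 were miR-135b-5p (2.13), miR-362-5p (1.40), miR-21-5p (1.16), miR-223-3p (1.13) and miR-146b-5p (1.01), and miR-155-5p stood at 1.70 with an adjusted p of 0.0516. All 24 called miRNAs had the same sign as before in that fit. On the slide that holds both PBS/PBS arrays, with 2 OVA/OVA arrays against them, 14 of the 16 higher and 6 of the 8 lower were called, miR-721 (3.20, adjusted p = 0.0714), miR-680 (2.39, adjusted p = 0.0598), miR-489-3p and miR-153-3p being the exceptions. With the slide as a block, 16 of the 16 and 4 of the 8 were called, the 4 being miR-31-3p, miR-153-3p, miR-151-3p and miR-30c-1-3p. Without each of the 8 arrays in turn, 9 of the 16 higher were called every time, namely miR-135b-5p, miR-155-5p, miR-362-5p, miR-21-5p, miR-223-3p, miR-18a-5p, miR-130b-3p, miR-378-3p and miR-7a-5p, against 0 of the 8 lower.

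**Figure D5:**
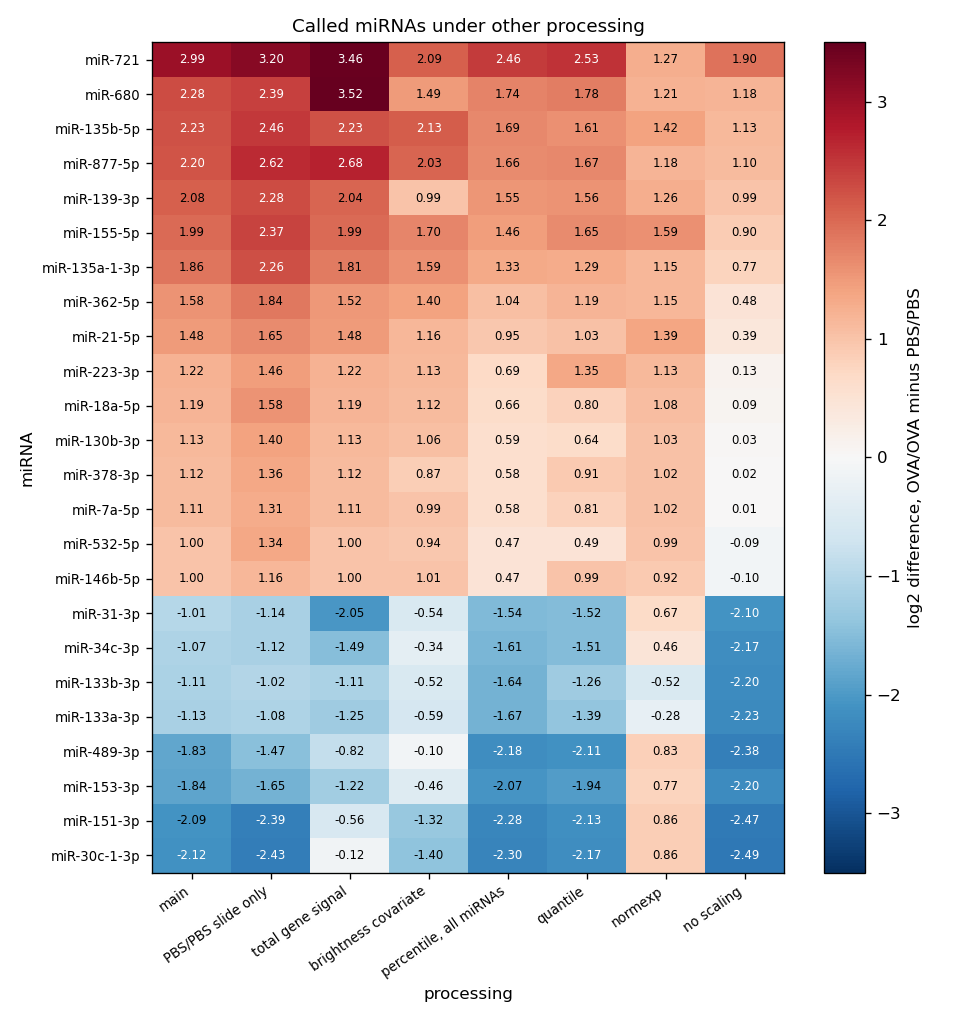
Log2 difference, OVA/OVA minus PBS/PBS (colour and printed value), of the 24 called miRNAs (rows) under the main processing and 7 others (columns). The 16 called higher are positive in every column except miR-532-5p (-0.0949) and miR-146b-5p (-0.10) without scaling, and 6 of the 8 called lower turn positive with normexp background correction.

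A list of 29 miRNAs that the study had chosen on these same samples was also counted, and it is not independent evidence. Of the 29, 15 were called higher and 0 lower, and 22 had a positive difference. The miRNA called higher outside that list was miR-146b-5p, and none of the 8 that fell belonged to it.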

How the data were processed

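Total RNA of whole lung, with samples of RNA integrity number below 8 left out per the study's methods, was hybridised to 1-colour (Cy3) Agilent mouse miRNA arrays (Release 12.0), 1 array per sample. The deposited scanner files hold spot intensities that the authors extracted with Agilent Feature Extraction 10.7.3.1 (submitters' processing notes), with the local background subtracted and no scaling between arrays. The deposited detection, saturation and spot type flags of the authors' files have no unit. The authors' value table holds log2 values whose 75th percentile lies at or near 0, with medians of -7.7 to -5.7 per array. How it was scaled is not given in the sources used here, and it was an alternative for the 150 miRNAs matched within 0.15 log2 units.

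Spots of a probe were averaged, probes of a miRNA summed, and each array divided by its 75th percentile, taken over the 206 mouse miRNAs that all 16 arrays detected. Each array has a lowest scaled signal among its detected miRNAs, and values under the median of these (2.60, log2 1.38) were raised to it. The 16 arrays, in 4 groups given by the labels, were fitted with limma 3.58.1 (R 4.3.3) on the log2 scale, and p-values were adjusted by Benjamini-Hochberg over 266 miRNAs. A miRNA was called with an adjusted p under 0.05 and at least 2-fold. Tables were handled in pandas 2.3.3, numpy 2.4.6 and scipy 1.17.1 under Python 3.11.15, plots were drawn in matplotlib 3.10.9, and exact permutation tests enumerated all splits of the arrays. The fit was tested on simulated data. The number of arrays, 2 against 6, limits the precision.

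The miRNAs and lists were chosen with earlier results of these data known. Named were all called miRNAs, up to 6 uncalled ones with the largest differences, examples past the adjusted p, members of the lists and of seed families, hairpin arms and clusters of called miRNAs, those detected throughout 1 group and on no array of the other, and the 5 brightest in PBS/PBS. Precursors within 10000 bases on 1 strand formed a cluster. Hairpins outside RefSeq's table were not placed. Alternatives were other scalings, background corrections, detection filters, floors, blocks, covariates, thresholds and tests, and leaving out each array. Normexp (offset 50) ran on the median spot signal in place of the mean. The 39 viral miRNAs stayed out of the tests.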

Additional observations from a re-analysis of the deposited data

Results flagged for a closer look

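Among 75 miRNAs examined for a lone sample in OVA/OVA, 5 had 1 array whose gap to its neighbour took up most of the range of the group, and chance marks about 1 in 20 groups. MiR-151-3p and miR-30c-1-3p were each above the floor on replicate 4 alone (3.16 and 3.25), so that the gap was the whole range, a share of 1 for both. For miR-342-5p replicate 5 was the lowest, with a gap of 0.712 of the range. For miR-497-5p replicate 5 was the highest, with a gap of 0.686. For miR-542-5p replicate 2 was the lowest, with a gap of 0.677.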

How the results depend on the processing

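The counts of miRNAs called higher and lower, 16 and 8, moved by over 1.5 times in at least 1 direction under most alternatives. They were 7 and 30 with the 75th percentile over all miRNAs, 3 and 153 without scaling, 6 and 17 with quantile normalization, 30 and 0 with normexp, 16 and 4 with the total gene signal, and 7 and 1 with the deposited value table, where 150 miRNAs were tested. They were 17 and 3 without a detection filter, 14 and 2 over the 215 miRNAs detected on all 8 arrays, 17 and 2 with only the compared groups, 22 and 4 when the slide was blocked, 5 and 0 with array brightness as a covariate, and 35 and 32 with no minimum change. The exact Mann-Whitney test called 0 and 0 after adjustment, with 5 miRNAs at an unadjusted p under 0.05. Without tied values, 2 arrays against 6 cannot give this test a two-sided p under 0.0714, so it could not call such miRNAs. An unadjusted p under 0.05 can arise here only with tied values, such as those at the floor. Leaving out 1 array gave 10 to 21 higher and 0 to 13 lower. The other floors, the slide that holds PBS/PBS alone and limma with trend and robust gave 16 or 17 higher and 6 to 9 lower. The 1 call of PBS/OVA against PBS/PBS became 0 without scaling, with quantile normalization, normexp, the value table, no detection filter, the replicate block, the brightness covariate and the slide that holds PBS/PBS, and was 0 to 1 with arrays left out. The difference in summed signal of -406983 was -480394 to -333571 with arrays left out, and that in detected miRNAs of -15.5 was -23.5 to -9.

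Same-numbered arrays did not deviate together (18 pairs, correlation of deviations from the group means -0.79 to 0.40). The median was -0.05, beside -0.01 for the other pairs. This gave no sign of pairing by number. It cannot exclude pairing, since the 2 PBS/PBS arrays deviate from their mean in mirror image. With the replicate block, 16 were called higher and 2 lower.

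Directions reversed as follows, with the log2 difference under the alternative, and the cause was not tested. With the percentile over all miRNAs, miR-20a-5p was at -0.0212, miR-20b-5p at -0.0221, miR-362-3p at -0.0254, miR-342-3p at -0.0834, miR-148a-3p at -0.16, miR-200c-3p at -0.17 and miR-28-5p at -0.28. MiR-1187 was at -0.30 with the brightness covariate and miR-378-5p at -0.11 with quantile normalization. Without scaling, miR-532-5p was at -0.0949, miR-146b-5p at -0.10, miR-142-3p at -0.18, miR-296-5p at -0.20, miR-191-3p at -0.21, miR-340-5p at -0.23, miR-1198-5p at -0.36, miR-500-3p at -0.39, miR-342-5p at -0.41, miR-17-3p and miR-19a-3p at -0.44, miR-340-3p at -0.48, miR-139-5p at -0.50, miR-378-5p at -0.52, miR-20a-5p and miR-20b-5p at -0.58, miR-362-3p at -0.59, miR-342-3p at -0.65, miR-148a-3p at -0.72, miR-200c-3p at -0.74 and miR-28-5p at -0.84. With normexp, miR-218-5p was at 0.0234, miR-152-3p at 0.0348, miR-181c-5p at 0.0437, miR-335-5p at 0.0578, miR-582-5p at 0.0785, miR-203-3p at 0.13, miR-10b-5p at 0.17, miR-31-5p at 0.29, miR-193b-3p at 0.43, miR-34c-3p at 0.46, miR-542-5p at 0.54, miR-181a-1-3p at 0.61, miR-31-3p at 0.67, miR-450b-3p at 0.71, miR-153-3p at 0.77, miR-10a-3p at 0.78, miR-322-3p at 0.81, miR-489-3p at 0.83, miR-30c-1-3p and miR-151-3p at 0.86, and miR-193-5p at 0.89. With 2 PBS/PBS arrays, both brighter than all OVA/OVA arrays, brightness and group cannot be fully told apart, and low signals have a bound only.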

Other observations

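The 39 viral miRNAs on the array gave few signals, with 3 detected on each PBS/PBS array and 3 to 4 on the OVA/OVA arrays. Over the 220 tested miRNAs with a RefSeq sequence, the median GC content was 45.5%, beside 42.9% for the miRNAs called higher and 46.7% for those called lower.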
